A study of Homo sapiens with 8 samples.

Results

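H3K9me3 at the promoters of voltage-gated ion channel genes was measured in SiHa cells, an established human line of cervical squamous cell carcinoma. The members were all genes in both deposited promoter tables whose symbols belong to the KCN, SCN, CACNA, CACNB, CACNG or HCN families, 120 of the 24792 genes with a tested window. They comprised 80 potassium, 14 sodium, 23 calcium and 3 HCN channel genes, and 194 promoter windows of 38157 carried their names. Each gene was represented by its window with the most reads over all libraries, which counts H3K9me3 reads too. All 120 passed the filter on low reads. The KCN symbols also take in inward rectifier and tandem-pore channels, which have no voltage sensor, and the auxiliary subunits.

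Cells were seeded in a transwell plate, and after 10 h the migrated cells, which had crossed the porous membrane, and the non-migrated cells, which had not, were collected separately. Each fraction gave a ChIP library made with an antibody to H3K9me3 and an input library made without antibody, in 2 paired replicate sets, so that the 4 groups (H3K9me3 and input of migrated cells, H3K9me3 and input of non-migrated cells) each held 2 libraries. All 8 libraries came from this line with no other agent or genetic change named in the labels. Set 1 was shallow: its H3K9me3 libraries held 88028 reads in promoter windows for migrated and 164766 for non-migrated cells, and its inputs 684949 and 388191, whereas set 2 held 984835 and 1137376 H3K9me3 reads and 1679874 and 1729061 input reads. Of the 120 channel windows, 30 held no read in the set 1 H3K9me3 library of migrated cells and 11 none in that of non-migrated cells, counts that allow up to 28.9 and 17.0 RPM (reads scaled to a common TMM-adjusted library size). The sets also differed in library kit, per the labels' protocols, and the fractions did not. The p-values rest on how far the differences between fractions varied from set to set, pooled in part over all windows. A difference between the sets in H3K9me3 over input was fitted as a term of its own, so it does not enter that spread. Only DNA was sequenced, so no expression of any channel was measured.

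Trimethylation of lysine 9 of histone H3 marks silenced chromatin and is written by SUV39H1 and related methyltransferases. Voltage-gated channels are membrane pores that open and close with the membrane potential. Potassium channels generally set the resting potential and repolarise the cell, sodium channels carry the rising phase of the action potential, and calcium channels couple voltage to secretion, contraction and transcription. HCN channels carry the pacemaker current, and auxiliary subunits alter the gating and trafficking of the pores. Most of these genes are best known from nerve and muscle.

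Promoter sequences of 6 members are shown because they contrast a high-H3K9me3 with a low-H3K9me3 set, all from genes with a single window on the gene's own strand. They are RefSeq sequences of GRCh38.p14 (250 bases before to 50 bases after the annotated start, on the gene's strand), with every CpG dinucleotide in capitals. The counts below come from hg19 windows of mostly 2100 bases, and whether both use the same start was not checked. The first 3 belong to genes with more H3K9me3 than input, KCNA4 (chr11:30016981-30017280, minus strand), KCNT2 (chr1:196608391-196608690, minus strand) and KCNIP3 (chr2:95346408-95346707, plus strand).
KCNA4: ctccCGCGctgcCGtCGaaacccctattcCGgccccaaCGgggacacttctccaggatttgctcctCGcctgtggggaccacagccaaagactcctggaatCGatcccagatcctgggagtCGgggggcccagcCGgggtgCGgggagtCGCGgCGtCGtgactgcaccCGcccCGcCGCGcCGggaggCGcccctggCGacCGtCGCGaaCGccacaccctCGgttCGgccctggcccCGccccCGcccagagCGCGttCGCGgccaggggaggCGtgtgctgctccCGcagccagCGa
KCNT2: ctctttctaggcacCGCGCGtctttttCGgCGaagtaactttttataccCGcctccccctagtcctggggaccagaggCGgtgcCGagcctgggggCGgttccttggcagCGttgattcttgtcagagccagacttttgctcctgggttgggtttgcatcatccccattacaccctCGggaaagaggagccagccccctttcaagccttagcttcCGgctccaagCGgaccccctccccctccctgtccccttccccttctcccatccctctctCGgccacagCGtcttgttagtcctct
KCNIP3: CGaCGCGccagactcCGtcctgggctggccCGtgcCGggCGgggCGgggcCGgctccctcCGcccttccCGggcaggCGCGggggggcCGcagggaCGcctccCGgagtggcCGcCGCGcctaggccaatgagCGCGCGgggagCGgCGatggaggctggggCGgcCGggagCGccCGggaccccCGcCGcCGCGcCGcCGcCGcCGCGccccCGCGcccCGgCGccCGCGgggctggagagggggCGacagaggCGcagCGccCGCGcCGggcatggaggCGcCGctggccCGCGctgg
The other set belongs to genes with less H3K9me3 than input, KCNH1 (chr1:211134099-211134398, minus strand), HCN2 (chr19:589631-589930, plus strand) and KCNT1 (chr9:135701935-135702234, plus strand).
KCNH1: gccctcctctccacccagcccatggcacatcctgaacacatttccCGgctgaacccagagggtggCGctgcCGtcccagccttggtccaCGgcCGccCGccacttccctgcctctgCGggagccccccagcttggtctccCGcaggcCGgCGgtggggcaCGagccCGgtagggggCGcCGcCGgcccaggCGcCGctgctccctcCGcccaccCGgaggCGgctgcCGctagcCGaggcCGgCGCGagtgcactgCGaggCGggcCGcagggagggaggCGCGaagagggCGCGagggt
HCN2: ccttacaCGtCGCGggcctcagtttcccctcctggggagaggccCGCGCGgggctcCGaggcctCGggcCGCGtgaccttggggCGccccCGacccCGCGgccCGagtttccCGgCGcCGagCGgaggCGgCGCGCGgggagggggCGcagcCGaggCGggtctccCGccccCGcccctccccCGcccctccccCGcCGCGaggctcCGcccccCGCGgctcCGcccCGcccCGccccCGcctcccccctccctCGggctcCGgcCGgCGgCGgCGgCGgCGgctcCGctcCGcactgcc
KCNT1: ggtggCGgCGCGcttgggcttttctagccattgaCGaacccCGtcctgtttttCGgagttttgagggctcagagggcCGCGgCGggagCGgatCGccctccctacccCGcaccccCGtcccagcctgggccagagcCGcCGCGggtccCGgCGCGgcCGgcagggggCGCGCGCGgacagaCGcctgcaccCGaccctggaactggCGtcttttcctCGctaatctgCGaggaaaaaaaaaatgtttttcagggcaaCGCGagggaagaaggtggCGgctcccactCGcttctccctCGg
CpG-rich stretches occurred on both sides. The KCNA4 promoter held 37 CpGs and KCNIP3 53, KCNT2 held 15, and the low-H3K9me3 promoters held 32 (KCNH1), 49 (HCN2) and 34 (KCNT1).

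The first comparison asked which channel promoters carried H3K9me3 above input. Each value is the log2 ratio of H3K9me3 to input as a mean of both fractions, with limma's SE and n = 2 sets. They are relative to the centre set by TMM (trimmed mean of M values, the scaling of library sizes), not absolute, and the median tested gene lay at -0.17. A gene was called enriched (above that centre) or below it at a Benjamini-Hochberg adjusted p under 0.05 in limma, over all 36440 tested windows. Of the 120 channel genes, 21 were enriched, against a background of 18.6% of all tested genes, and 37 were below the centre, against a background of 30.9%. The channel shares, 17.5% and 30.8%, lay near that background, and the channel median was 0.00. The members reported by name spanned 1.86 (KCNH7) to -2.43 (KCNK5). In 14 channel genes every H3K9me3 library lay above every input library in RPM, against 12.2% of all genes, and in 20 every H3K9me3 library lay below, against 24.4%. The counts rested on the scaling and the libraries: with the submitters' own constants 0 members were enriched and 52 lay below, in set 2 alone 46 and 26, and without the shallowest library, H3K9me3 of migrated cells of set 1, 41 and 22. All 21 enriched members were also enriched in set 2 alone. A call did not need sets of similar value: KCNH8 was called below the centre with log2 -2.18 in set 1 and -0.09 in set 2. The constants moved the median of all windows by -0.95. Over all 36440 windows they gave 340 enriched and 19685 below, against 5771 and 12821 with TMM. The median window, -0.35 with all libraries, was -0.00 in set 2 alone and -0.04 without the shallowest library.

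**Figure D1:**
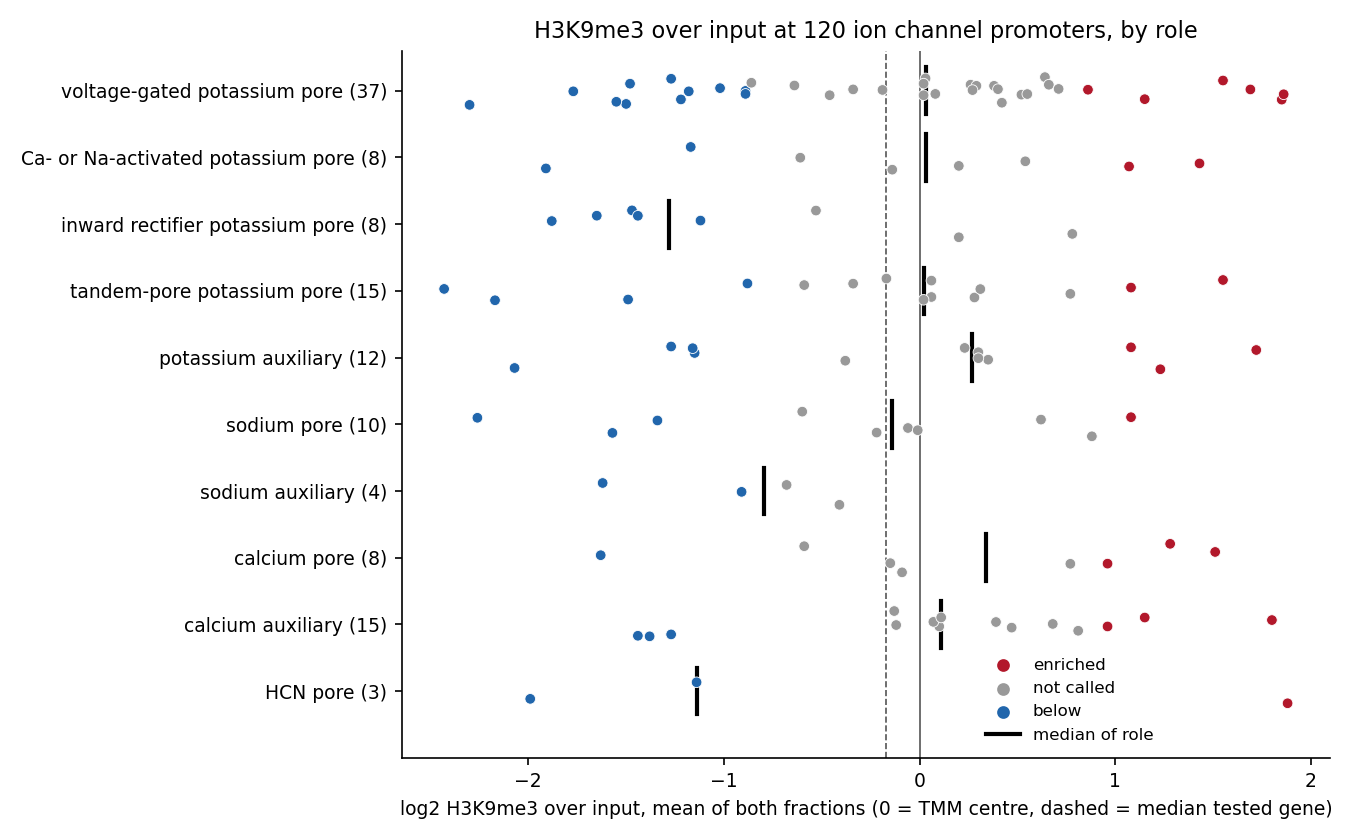
Log2 H3K9me3 over input (mean of both fractions, horizontal axis) of 120 channel genes, 1 point a gene, in rows by role with the number of genes in brackets; black bars are medians of a role, the solid line is the TMM centre and the dashed line the median tested gene (-0.17). Most roles spread to both sides, while the 8 inward rectifiers have 5 genes below the centre and none enriched.

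Among the channel classes, potassium channels had 13 enriched and 26 below of 80 genes (median log2 0.02), sodium channels 1 and 5 of 14 (median -0.51), calcium channels 6 and 4 of 23 (median 0.11) and HCN channels 1 and 2 of 3 (median -1.14). Under the submitters' constants the medians of potassium and calcium channels became -0.98 and -0.79, and relative to the median window the class medians were 0.37, -0.16, 0.46 and -0.79 in the order given with TMM and 0.32, -0.24, 0.51 and -0.84 with the constants. Reads pooled over the members of a class gave calcium channels log2 0.57 in migrated and 0.16 in non-migrated cells of set 1, and 0.63 and 0.41 in set 2. Pooled sodium channel windows gave -0.77 and -0.47 in set 1, and -0.07 and -0.10 in set 2. Potassium channels stayed near the centre, with -0.11 and 0.06 in set 1 and 0.14 and 0.02 in set 2. Of potassium, sodium and calcium channels, calcium channels thus had the highest and sodium channels the lowest pooled value in all 4 pairs of libraries. With the window chosen by input reads alone, 7 members changed window. CACNA1D, CACNA2D1, CACNG3 and CACNG4 were then called below the centre (-1.07, -1.23, -1.06 and -1.49), as was KCNN1 (-0.95). CACNB4 was not called (-0.13) and KCNH7 stayed enriched (0.90). The pooled values were not recomputed for that choice. The pooled HCN windows gave 1.05 and 0.03 in set 1, and 1.18 and 0.55 in set 2. They lay above calcium channels in 3 of the 4 pairs and opposite in sign to the median of the 3 HCN genes. Most of their H3K9me3 reads came from the enriched HCN gene, so these pooled values do not describe the class. No test was made between classes, whose genes are not replicates, and over all tested genes the pooled values were -0.11, 0.01, 0.12 and -0.01 in the same order. The 89 pore-forming genes had 15 enriched and 28 below (median -0.06), and the 31 auxiliary genes 6 and 9 (median 0.10).

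HCN2, a pacemaker channel of brain and heart (chromosome 19, 587893 to 589993), held 0 and 8.66 RPM (set 1 and set 2) in H3K9me3 of migrated cells against 7.27 and 37.8 in their input, and 0 and 8.97 in H3K9me3 of non-migrated cells against 18.0 and 50.3 in their input. Its log2 ratio was -1.99 ± 0.45 (adjusted p = 4.47e-04). In set 2 its H3K9me3 lay below its input in both fractions, but in set 1 the 0 reads of migrated cells allow up to 28.9 RPM, more than their input of 7.27, so that pair of libraries cannot place it below input.

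Voltage-gated potassium pores divided within families. Of 37 such genes, 6 were enriched and 11 below. The Shaker-type KCNA family held 3 enriched and 1 below of 7 genes, with a median of 0.66 that became -0.30 under the submitters' constants; relative to the median window it was 1.01 and 1.00. KCNA4 (chromosome 11, 30038470 to 30040570), an A-type channel that inactivates fast, held 116 and 97.5 RPM in H3K9me3 of migrated cells against 32.0 and 23.0 in their input, and 33.9 and 70.8 in H3K9me3 of non-migrated cells against 7.72 and 29.0 in their input (log2 1.69 ± 0.35, adjusted p = 1.62e-04). All 4 of its H3K9me3 libraries lay above its 4 inputs. KCNA1, a Kv1 channel of axons, reached 1.55 ± 0.31 and KCNA3, a channel known from T cells, 1.15, while KCNA7 lay at -1.50 ± 0.42 (chromosome 19, 49576098 to 49578198). KCNA7 held 0 and 16.2 RPM in H3K9me3 of migrated cells against 29.1 and 38.4 in their input, and 22.6 and 10.8 in H3K9me3 of non-migrated cells against 25.7 and 41.9 in their input, so that no H3K9me3 library reached an input library, although the 0 of set 1 allows up to 28.9 RPM. KCND2, the pore of a somatodendritic A-type current, stood at 1.85 ± 0.29 (adjusted p = 3.34e-06). Of the KCNC family of fast repolarising channels KCNC1 was below the centre (-1.02), while the others were not called.

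The KCNH family of ether-a-go-go related channels had 1 enriched and 4 below of 7 genes, with a median of -1.22. KCNH7 (chromosome 2, 163695140 to 163697240), an ERG-type channel of neurons, held 77.1 and 97.5 RPM in H3K9me3 of migrated cells against 16.0 and 21.1 in their input, and 33.9 and 69.9 in H3K9me3 of non-migrated cells against 12.9 and 22.6 in their input. Its log2 ratio was 1.86 ± 0.34, and its other windows were enriched too, at 0.90 and 1.08. KCNH1 (chromosome 1, 211306616 to 211309457), which encodes the EAG1 channel and is known for ectopic expression in tumours, showed the reverse. It held 9.63 and 13.0 RPM in H3K9me3 of migrated cells against 34.9 and 49.3 in their input, and 0 and 12.6 in H3K9me3 of non-migrated cells against 36.0 and 54.2 in their input, or log2 -2.30 ± 0.41 (adjusted p = 2.25e-05). KCNH2, the HERG channel of cardiac repolarisation, was not called (-0.19), and KCNH4, KCNH8 and KCNH3 were below the centre at -1.48, -1.27 and -1.22. Other voltage-gated potassium pores below the centre included the electrically silent modifier subunits KCNF1 (-1.55 ± 0.40) and KCNG1 (-1.18 ± 0.36).

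**Figure D2:**
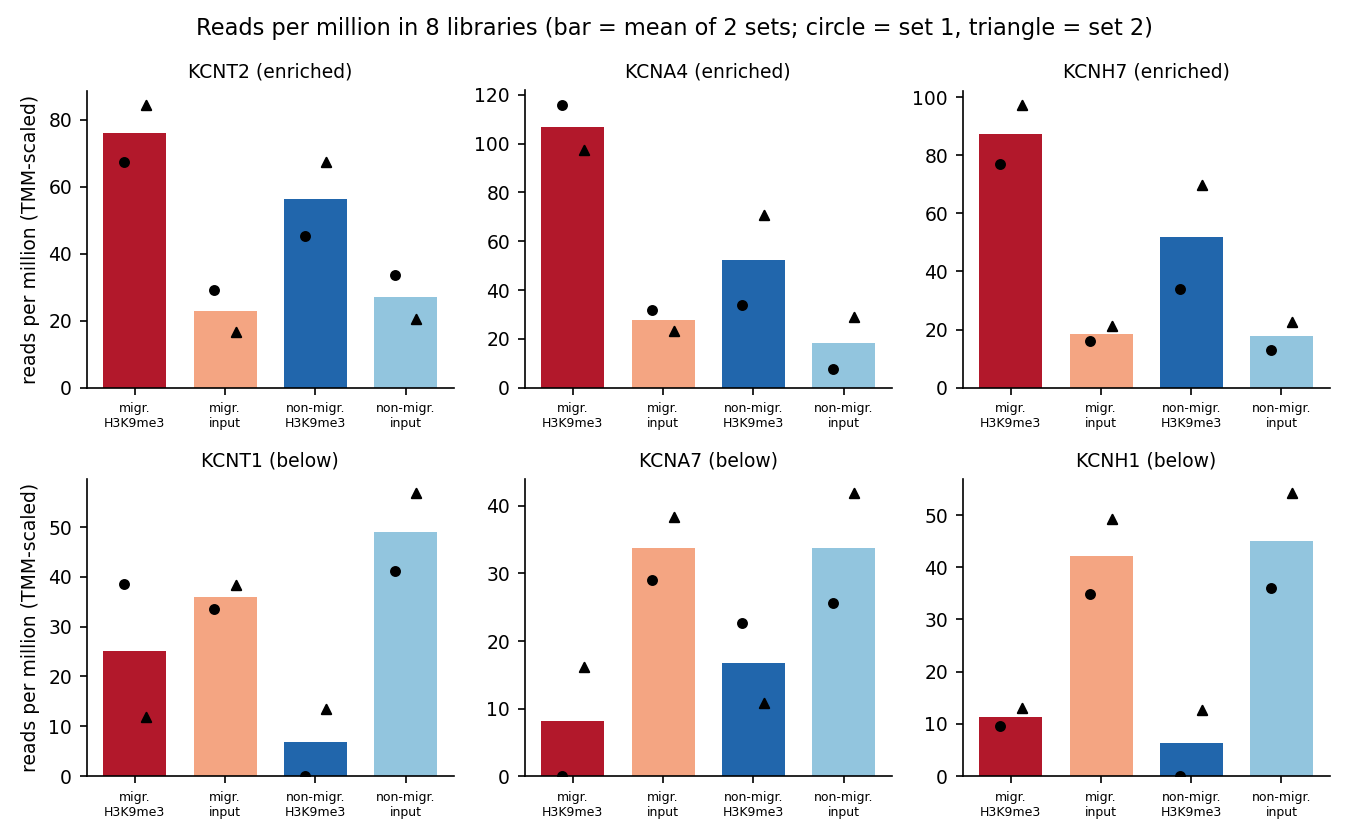
RPM (vertical axis, own scale in each panel) of 3 enriched channel genes in the upper row and a paralog of each in the lower row; bars are means of the 2 sets, circles set 1 and triangles set 2. In the upper row both H3K9me3 bars exceed both input bars, and in the lower row both H3K9me3 bars lie below both input bars, although the set 1 point of KCNT1 in migrated cells, 38.5 RPM, exceeds its input of 33.5.

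Sodium-activated and calcium-activated potassium channels were balanced, with 2 enriched and 2 below of 8 genes. The sodium-activated channel genes KCNT2 and KCNT1 differed most: KCNT2 (chromosome 1, 196577441 to 196579541) held 67.4 and 84.5 RPM in H3K9me3 of migrated cells against 29.1 and 16.6 in their input, and 45.2 and 67.3 in H3K9me3 of non-migrated cells against 33.5 and 20.6 in their input (log2 1.43 ± 0.30). KCNT1 (chromosome 9, 138592031 to 138594131) held 38.5 and 11.9 in H3K9me3 of migrated cells against 33.5 and 38.4 in their input, and 0 and 13.5 in H3K9me3 of non-migrated cells against 41.2 and 56.8 in their input (log2 -1.91 ± 0.43). For KCNT1 the migrated cells of set 1 went against the other 3 pairs of libraries. KCNN2, a small-conductance calcium-activated channel, was enriched at 1.07, and KCNN4, the intermediate-conductance channel of epithelia and blood cells, was below the centre at -1.17.

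Inward rectifiers, which pass potassium mainly into the cell and hold the resting potential, had 5 of 8 genes below the centre and 0 enriched, with a median of -1.28. At an unadjusted p under 0.05, 1 inward rectifier was enriched by limma, by limma-trend and by the quasi-Poisson model: KCNJ1, the renal outer medullary channel, at log2 0.78 (adjusted p = 0.0557). KCNJ12 (chromosome 17, 21277699 to 21279799), a cardiac and muscle rectifier with a near-identical copy, KCNJ18, that may share its reads, lay lowest at -1.88 ± 0.42. KCNJ4 held 0 and 15.2 RPM in H3K9me3 of migrated cells against 34.9 and 40.3 in their input, and 22.6 and 18.8 in H3K9me3 of non-migrated cells against 36.0 and 36.1 in their input (-1.44 ± 0.39). KCNJ5 and KCNJ11, subunits of G protein-gated and ATP-sensitive channels, stood at -1.65 and -1.12. Pooled over the 8 genes, the log2 ratio was -1.41 in migrated and -0.48 in non-migrated cells of set 1, and -1.01 and -0.71 in set 2, so all 4 pairs of libraries lay below 0. The set 1 values rest on 8 pooled H3K9me3 reads in migrated and 29 in non-migrated cells, against 107 and 160 in set 2.

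Tandem-pore channels, which carry leak currents, had 2 enriched and 4 below of 15 genes. KCNK12 (chromosome 2, 47797978 to 47800078) was highest, with 19.3 and 126 RPM in H3K9me3 of migrated cells against 16.0 and 26.9 in their input, and 45.2 and 108 in H3K9me3 of non-migrated cells against 10.3 and 43.9 in their input (1.55 ± 0.36). KCNK7 was the lowest with a mean of at least 20 reads a library (-1.49 ± 0.41). KCNK5, an acid- and alkali-sensitive epithelial channel with a mean of 15.5 reads, was chosen for mention after its values were seen: it had the lowest ratio of all members, at -2.43 ± 0.44, with 0 and 5.42 RPM in H3K9me3 of migrated cells against 29.1 and 26.2 in their input, and 0 and 7.17 in H3K9me3 of non-migrated cells against 20.6 and 27.1 in their input.

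Potassium channel auxiliary subunits had 3 enriched and 4 below of 12 genes. The enriched ones were all KCNIP genes, calcium-binding partners of the KCND pores, at 1.72 ± 0.32 for KCNIP1, 1.23 ± 0.32 for KCNIP3 and 1.08 for KCNIP4, while KCNIP2, the main cardiac form, lay at -1.27. KCNIP3, also known as the DREAM transcriptional repressor, held 48.2 and 97.5 RPM in H3K9me3 of migrated cells against 17.5 and 30.1 in their input, and 39.6 and 76.2 in H3K9me3 of non-migrated cells against 25.7 and 37.4 in their input. All its H3K9me3 libraries exceeded all its inputs. KCNE2, a small subunit that assembles with several KCNQ and KCNH pores, was the lowest of these genes with a mean of at least 20 reads (-1.16 ± 0.39).

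Sodium channels had the smallest enriched share of the classes (7.14% of 14 genes, against 18.6% of all tested genes). Their share below the centre was 35.7%, against 30.9%. SCN7A, an atypical channel that senses extracellular sodium, was the sole enriched gene of 14: it held 19.3 and 52.0 RPM in H3K9me3 of migrated cells against 23.3 and 17.9 in their input, and 45.2 and 41.2 in H3K9me3 of non-migrated cells against 20.6 and 14.8 in their input (1.08 ± 0.35, adjusted p = 0.0105). In migrated cells of set 1 it lay under its input, and set 2 gave log2 1.78 in migrated and 1.69 in non-migrated cells. Below the centre were SCN8A (-2.26), the channel of nodes of Ranvier, SCN3A (-1.57), an embryonic brain channel, SCN4A (-1.34 ± 0.45), the channel of skeletal muscle, and the auxiliary gene SCN2B (-1.62), among others. SCN8A and SCN3A had means of 13.5 and 13.0 reads and were named after their values were seen. SCN2B, with 117 reads over all libraries, was also outside the rule for named genes. SCN4A kept its call in 12 of 20 other settings, with values from -2.26 to -0.07. It was not called without 1 of 3 libraries: H3K9me3 of migrated cells of set 2 (-0.24), H3K9me3 of non-migrated cells of set 1 (-0.07) or the set 2 input of migrated cells (-0.99). Without H3K9me3 of non-migrated cells of set 2 it was -2.26. In migrated cells of set 1 it held 28.9 RPM in H3K9me3 against 18.9 in input. The auxiliary gene SCN3B was not called (-0.41 ± 0.40, adjusted p = 0.405), and its value in set 2 alone was 0.24.

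Calcium channel pores had 3 enriched and 1 below of 8 genes. CACNA1A, the P/Q-type channel of presynaptic terminals (chromosome 19, 13486727 to 13488827), held 86.7 and 45.5 RPM in H3K9me3 of migrated cells against 18.9 and 16.6 in their input, and 50.9 and 43.0 in H3K9me3 of non-migrated cells against 25.7 and 16.8 in their input. All H3K9me3 libraries exceeded all inputs (1.51 ± 0.33). CACNA1E, the R-type channel, stood at 1.28 ± 0.30 and CACNA1F, the retinal L-type channel, at 0.96. CACNA1S, the L-type channel of skeletal muscle, lay at -1.63 ± 0.50, but its migrated cells of set 1 held 48.2 RPM in H3K9me3 against 29.1 in input, and without H3K9me3 of non-migrated cells of set 1 the value was 0.00. Of the auxiliary genes, the CACNG family, homologues of the skeletal muscle gamma subunit that include regulators of AMPA receptors, had 2 enriched and 0 below of 7, with a median of 0.68 that became -0.14 under the submitters' constants (1.03 and 1.16 relative to the median window). In these windows no CACNG gene was below at an unadjusted p under 0.05 in limma, limma-trend or the quasi-Poisson model, and the lowest was CACNG5 at -0.13. This depended on the choice of window by all reads. In their windows with the most input reads, CACNG4 stood at -1.49 (limma adjusted p = 0.00814) and CACNG3 at -1.06 (adjusted p = 0.0259), both below the centre. CACNG8 was enriched at 1.80 ± 0.29 (adjusted p = 6.85e-06), with 106 and 117 RPM in H3K9me3 of migrated cells against 21.8 and 39.0 in their input, and 73.5 and 114 in H3K9me3 of non-migrated cells against 15.4 and 44.5 in their input. The beta subunit genes CACNB3 and CACNB1 were below the centre (-1.44 and -1.27) and CACNB2 was enriched (1.15), as against CACNA2D2, which encodes an alpha-2-delta subunit, at -1.38 ± 0.39 in a window on the opposite strand; its own-strand window was not called (-0.95).

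**Figure D3:**
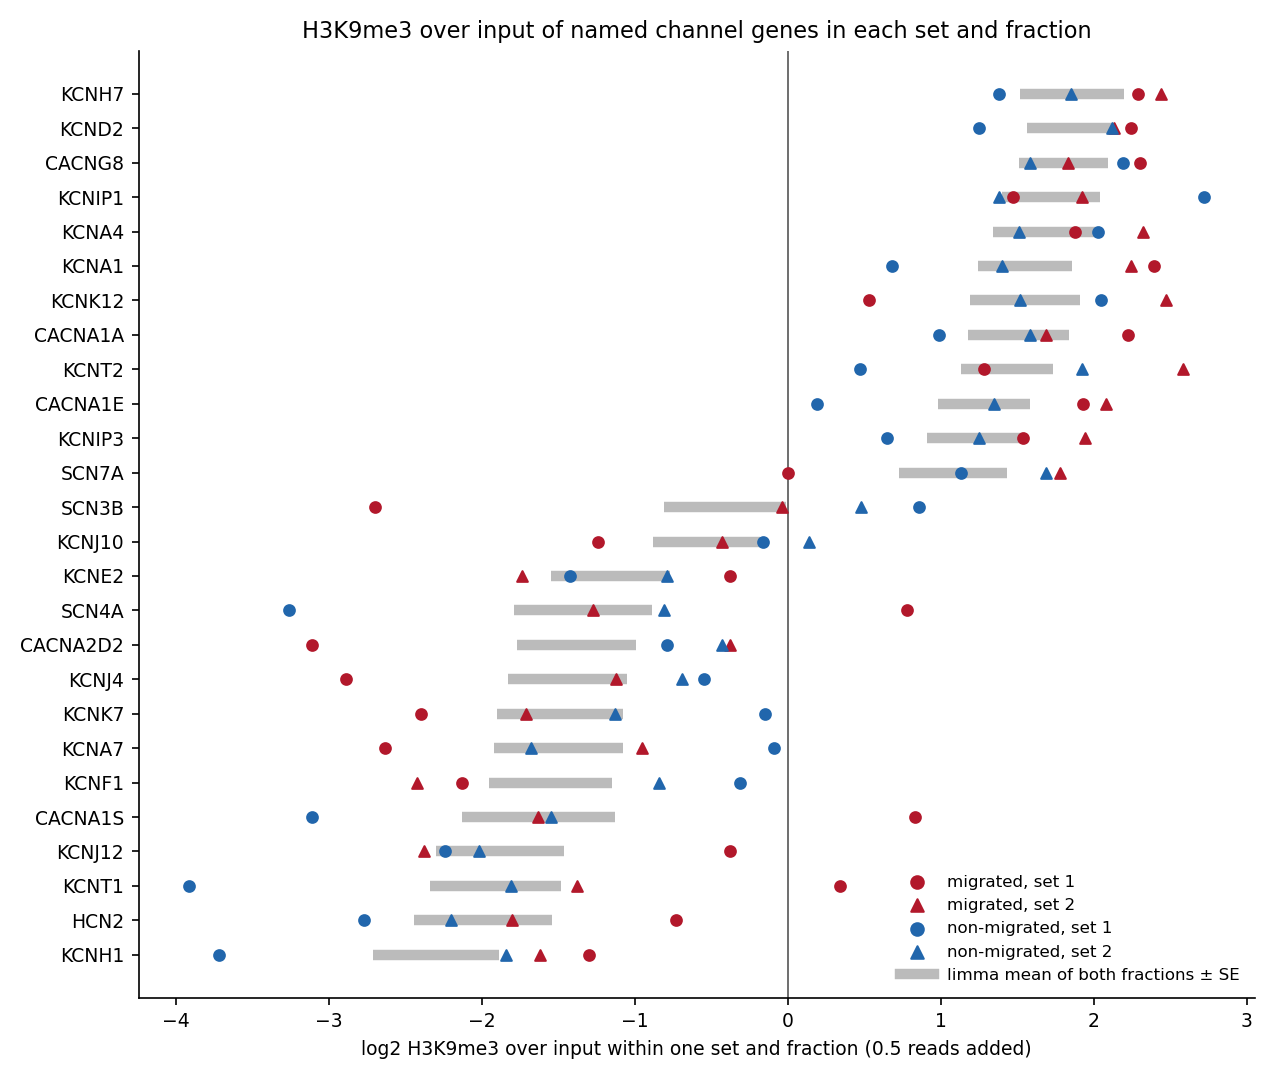
Log2 H3K9me3 over input within each set and fraction (horizontal axis, 0.5 reads added) of the named channel genes, migrated cells in red and non-migrated in blue, circles for set 1 and triangles for set 2; grey bars are the limma mean of both fractions ± SE. From KCNH7 to KCNIP3 all 4 points lie above 0, and for SCN7A the migrated point of set 1 lies at 0.00.

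Calls were also described for members that lie close together. Members whose windows lay within 1 Mb of the next member formed 16 groups with 40 genes. In 2 groups an enriched and a low gene lay together, 2 groups held more than 1 gene below the centre, and 0 held more than 1 enriched gene. In 5 groups no gene was called. The same counts were not made for neighbouring genes in general, so they have no background here. On chromosome 2 the sodium channel group ran SCN3A (-1.57), SCN2A (-0.60), SCN1A (0.62), SCN9A (-0.22) and SCN7A (1.08) in order of position, between 166060477 and 167352757. On chromosome 6, KCNK5 (-2.43) lay beside KCNK17 (1.08) and KCNK16 (0.77). On chromosome 3, SCN10A (-0.06) and SCN11A (0.88), channels of sensory neurons, were not called. By chromosome, 6 of 9 members on chromosome 17 and 6 of 11 on chromosome 11 were below the centre. These chromosomes were picked after their values were seen. The share of all their genes below the centre was not counted, so a level of the whole chromosome cannot be told apart.

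Several genes carry more than 1 window, and these differed within a gene. Of 120 genes, 42 had several windows, with up to 8 in KCNMA1, the large-conductance calcium-activated channel. CACNA1C, the L-type channel of heart and brain, had 7 windows from 0.28 to 1.36 with 2 enriched, although the window with the most reads was not called (0.77 ± 0.34, adjusted p = 0.0551). KCNMA1 had 2 of its 8 windows enriched (0.02 to 0.90). KCNQ5, a muscarine-regulated channel, had a window at 1.55 on the opposite strand and 0.42 in its window with the most reads. Other windows of enriched genes varied as well. They were enriched in KCND2 (1.25) and KCNH7 (0.90 and 1.08), but not called in CACNG8 (-0.44), CACNA1A (0.73) and CACNB2 (0.27 and -0.48). Those of KCNIP1, at 0.16 to 0.84, were not called either. CACNA1E had an enriched window (0.85) and an uncalled window (-0.39). KCNIP4 had an enriched window at 1.75, and the rest, from -0.22 to 0.47, were not called. Strand was known from RefSeq for 85 members: 73 of the windows used lay on the gene's strand and 12 on the opposite strand. It was not known for 35, among them KCNH7, KCNA1, CACNG8 and KCNK12. Of the 12 on the opposite strand 4 were below the centre and 0 enriched by limma, limma-trend and the quasi-Poisson model, with 1, 1 and 0 enriched at an unadjusted p under 0.05. Where the window was moved to the gene's own strand, KCNG3 stood at -2.72 in place of -0.86, CACNA2D1 at -1.23 in place of 0.39, CACNG3 at -1.06 in place of 0.07 and CACNA1D at -1.07 in place of -0.09, all 4 then called below the centre, and CACNA1C at 0.97 in place of 0.77, then called enriched. Calls were also lost there: KCND3, a further A-type pore, stood at -0.04 (adjusted p = 0.931) in place of -0.89 (adjusted p = 0.0497), and CACNA2D2 at -0.95 (adjusted p = 0.0705) in place of -1.38 (adjusted p = 0.00357). With the window chosen by input reads alone, 21 genes were enriched and 42 were below.

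**Figure D4:**
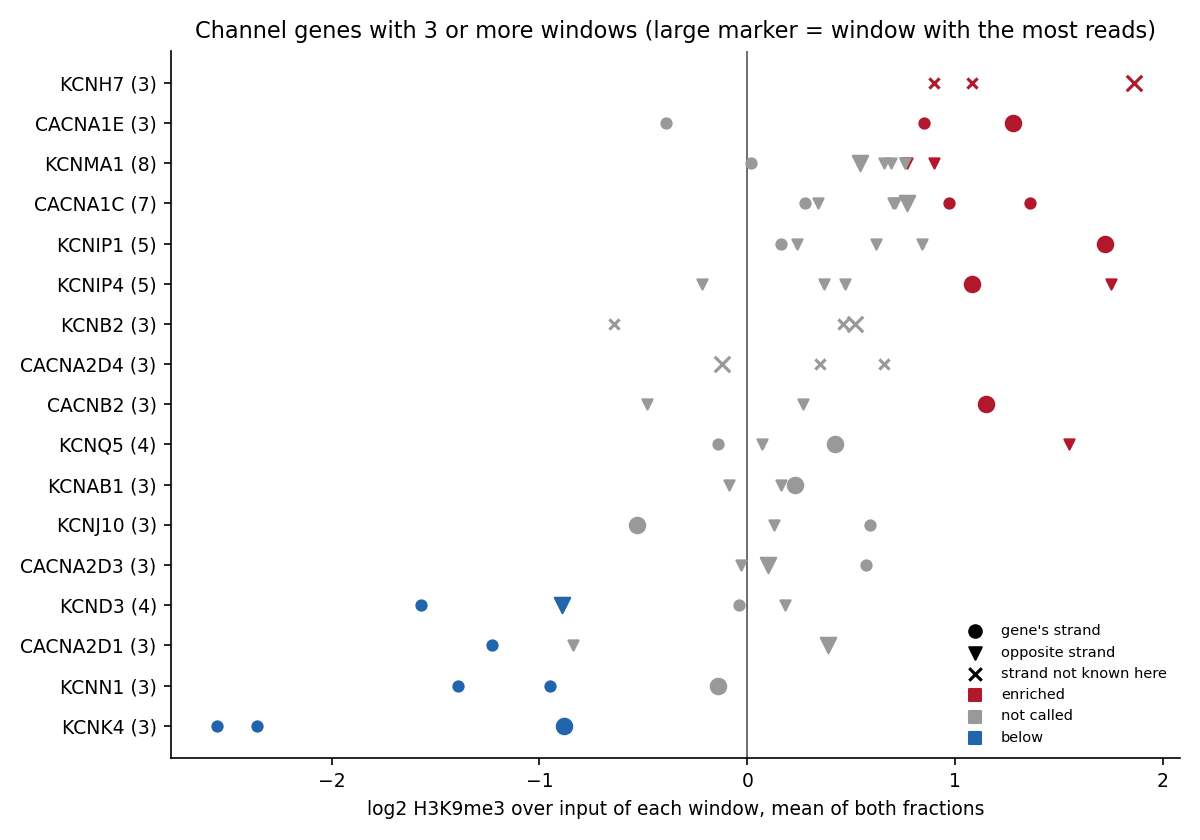
Log2 H3K9me3 over input (mean of both fractions, horizontal axis) of every window of the channel genes with 3 or more windows, the number in brackets; the large marker is the window with the most reads, circles lie on the gene's strand, triangles on the opposite strand and crosses where the strand was not known. The 8 windows of KCNMA1 lie between 0.02 and 0.90, those of KCNIP4 between -0.22 and 1.75.

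CpG content was compared for the 73 members with a RefSeq promoter and a window on the same strand, as the ratio of CpGs observed to those expected from the C and G content of the 300 bases. Of the 36 channel promoters with a ratio over 0.6, 8 were enriched (22.2%) and 13 below (36.1%); of the 6013 such promoters of all tested genes, 11.8% were enriched and 50.5% below. At or under 0.6 the channels had 7 enriched and 10 below of 37 (18.9% and 27.0%), against 18.7% and 21.8% of 3227 promoters of all genes. The median ratio was 0.74 in the 15 enriched and 0.69 in the 23 low channel promoters, and 0.65 and 0.83 in the enriched and low promoters of all genes. Across the 73 channel genes the ratio correlated with log2 H3K9me3 over input at r = -0.08, and across 9240 genes at r = -0.27, as a description over genes that share the same libraries. A GC box (GGGCGG on either strand) occurred in 8 of 15 enriched and 16 of 23 low channel promoters (53.3% and 69.6%), near the 50.7% and 71.7% of the enriched and low promoters of all tested genes; the share over all RefSeq promoters was 44.6%. CCAAT on either strand occurred in 5 and 4 (33.3% and 17.4%), against 37.1% of both the enriched and the low promoters of all tested genes and 35.7% of all RefSeq promoters. TATAAA occurred in 1 and 0 (6.67% and 0%), against 11.2% and 6.02% of those of all tested genes and 12% of all RefSeq promoters. In the sequences printed above, HCN2 had 7 GC boxes, KCNIP3 had 4, KCNA4 had 3 and KCNT1 had 0.

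The second comparison asked whether H3K9me3 differed between migrated and non-migrated cells. In migrated cells alone 22 channel genes were enriched and 27 below (background 15.2% and 24.7%), and in non-migrated cells 11 and 14 (background 10.2% and 20.4%). The 11 genes enriched in non-migrated cells were all among the 22 of migrated cells. Of the 14 low genes, 10 were among the 27. This overlap was not counted over all tested genes, so it has no background here. These counts do not compare the fractions, which the input-corrected change does (migrated minus non-migrated, log2). For that change 0 channel genes were called higher and 0 lower by limma, against a background of 0% of all genes in each direction. At an unadjusted p under 0.05, 3 channel genes were higher and 1 was lower, against 1.66% and 1.71% of all genes. Limma-trend and a quasi-Poisson model also called 0 in each direction, and gave 5 and 4 higher genes, and 1 lower gene each, at an unadjusted p under 0.05. The smallest adjusted p of any window was 0.999, and the median SE of a member's change was 0.59 on the log2 scale, so a change of that size was not detectable at this depth.

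Values of the change are given for members averaging at least 20 reads with the same sign in both sets. In each direction these were taken by smallest unadjusted p in limma. KCNA1 was higher in migrated cells by log2 1.04 ± 0.44 (unadjusted p = 0.0229, adjusted p = 0.999), with H3K9me3 over input of 2.39 in migrated and 0.68 in non-migrated cells of set 1, and 2.24 and 1.40 in set 2. Its H3K9me3 alone was 67.4 RPM in migrated and 73.5 in non-migrated cells of set 1, and 115 and 93.3 in set 2. Its input was lower in migrated cells in both sets, at 13.1 RPM against 46.3 in non-migrated cells of set 1 and 28.8 against 41.3 in set 2 (log2 -0.78 ± 0.35, unadjusted p = 0.0305, adjusted p = 1 in limma), so in set 1 the change lay in the input. CACNA1E gave 0.84 ± 0.43 (unadjusted p = 0.0607). On the other side, KCNF1 gave -1.67 ± 0.71 (unadjusted p = 0.0235), with -2.13 in migrated and -0.31 in non-migrated cells of set 1, and -2.42 and -0.84 in set 2. KCNG1 gave -0.98 ± 0.51 and SCN3B -1.25 ± 0.70. KCNF1, KCNG1 and SCN3B each held 0 H3K9me3 reads in migrated cells of set 1. None of these passed the adjusted threshold, and the same sign in both sets was a condition for choosing them. KCNG2, a silent subunit, had the smallest unadjusted p (0.0086) with 1.65 ± 0.59; its sets differed in sign and it was named after its values were seen.

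Across the 120 genes, 31 were higher in migrated cells in both sets and 33 lower in both sets, against a background of 24.9% and 25.5% of all genes. Pooled reads of the 21 enriched genes gave a log2 ratio of 1.57 in migrated and 0.99 in non-migrated cells of set 1, and 1.78 and 1.32 in set 2. Pooled reads of the 37 low genes gave -1.87 and -1.34 in set 1, and -1.37 and -1.09 in set 2. Enriched genes thus lay further above the centre, and low genes further below it, in migrated cells in both sets. The groups were chosen from the same libraries, so these pooled values are a description, and depth, which was lower in H3K9me3 of migrated than of non-migrated cells in both sets, moved with the fraction; its part was not tested. Between the inputs of migrated and non-migrated cells, 0 channel genes were called by limma or limma-trend, and at an unadjusted p under 0.05 each gave 0 higher and 1 lower, which in limma was KCNA1.

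**Figure D5:**
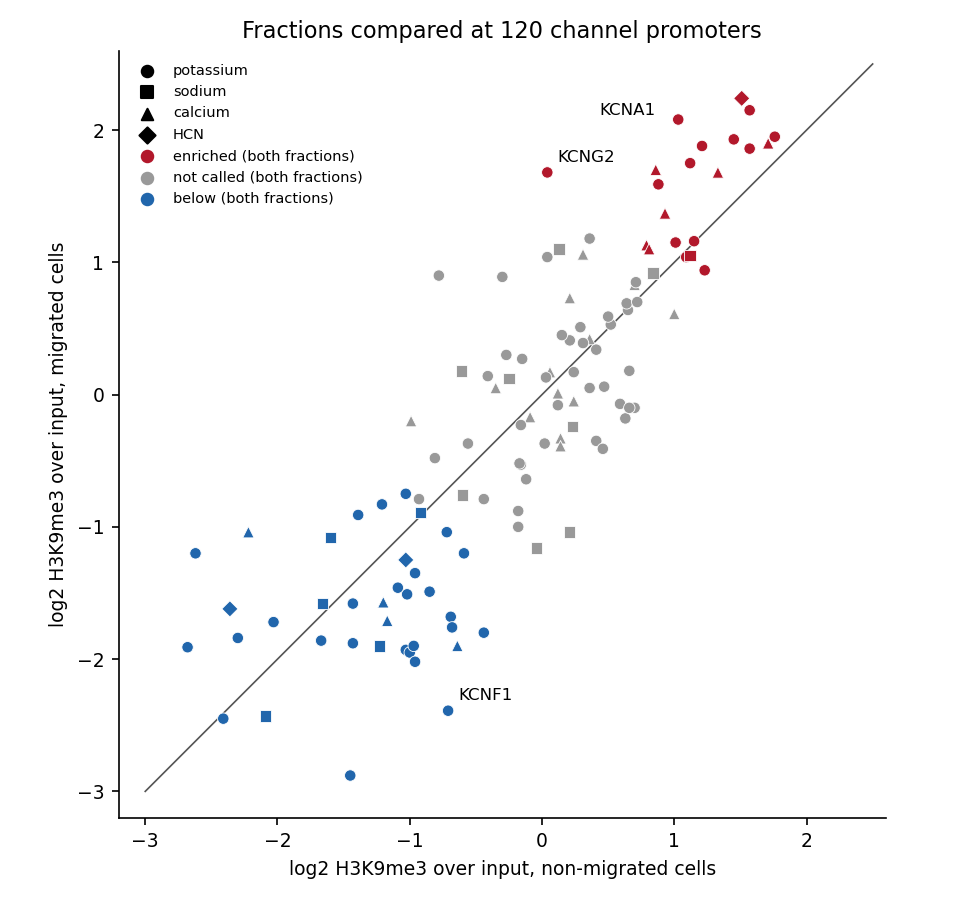
Log2 H3K9me3 over input in migrated cells (vertical axis) against non-migrated cells (horizontal axis) for 120 channel genes, with shapes by class and colours by the call over both fractions; the line marks equal values. Of the labelled genes, KCNA1 and KCNG2 lie above the line and KCNF1 below it, and none passed the adjusted threshold for a change.

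Genes that work with these channels were described by lists of function. The background over all tested genes was 18.6% enriched and 30.9% below (median -0.17). Of 27 channel partner genes found, 10 were enriched and 8 below (37% and 29.6%, median 0.44). Among them were ABCC9 (2.53), a subunit of ATP-sensitive potassium channels, DPP10 and DPP6 (1.94 and 1.41), partners of KCND channels, and FGF14 and FGF12 (1.89 and 1.25), which bind sodium channels. AKAP9, an anchor of KCNQ1, lay at -2.75. Other cation channels had 12 enriched and 10 below of 49 genes (24.5% and 20.4%, median 0.32). Chloride channels had 7 and 9 of 27 (25.9% and 33.3%, median -0.17). Sodium and calcium handling pumps had 1 and 3 of 16 (6.25% and 18.8%, median -0.23). Of 10 genes of the REST complex, a repressor of neuronal genes including channels, 2 were enriched and 5 below (20% and 50%, median -0.87). Among these, SIN3A lay at -3.16, RCOR3 at -2.47 and HDAC2 at 1.06.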

How the data were processed

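H3K9me3 ChIP and input libraries of migrated and non-migrated SiHa cells (8 libraries, 2 paired sets) were used as promoter tables of 38157 hg19 windows, of which 36796 spanned 2100 bases (2000 upstream to 100 downstream of a start). Per the file headers, the deposited unit is log2. Bowtie2 2.2.9, SAMtools 1.3 and FastQC 0.11.5 appear in the submitters' processing notes without parameters; the counting program and the constants described next are not given in the sources used here. Per the labels' protocols, set 1 had many duplicate reads, which were removed, and set 2 was made with another kit. For the set 1 H3K9me3 library of migrated cells, title and description disagree on the replicate, and the title's number was used.

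Each deposited log2 value turned out to equal the log2 of a whole number of reads shifted by 1 library constant, with 0 reads entered as 0.9; 100% of values were whole within 0.01 once the constant was removed. These recovered reads were analysed with limma 3.58.1 in R 4.3.3 on log2 of reads plus 0.5 per TMM-scaled library size, with voom weights. Windows needed the level of 10 reads in a library of median size in at least 2 libraries and 15 reads in all, which left 36440. The model held set, ChIP, set by ChIP, fraction and fraction by ChIP (2 residual and 33.1 prior degrees of freedom), each effect being fitted as a coefficient of its own coding so that the weights enter its SE exactly. Sets were kept as a block since the series calls them paired; across windows, same-set deviations from group means had r = 0.147 (H3K9me3) and 0.469 (input). Calls used a Benjamini-Hochberg adjusted p of 0.05. Over all windows 5771 were above and 12821 below the centre, with a median of -0.35. Intervals for 0 reads use 3 reads and cover counting error only. The fit was tested on simulated data.

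Members, gene lists and tests were chosen with earlier results of these data known. Named genes were called members averaging 20 reads or more, at most 12 enriched and 12 below, by size. The highest and lowest member of each role with that mean were added. For the change, members with that mean and equal sign in both sets were taken by smallest unadjusted p in limma, in each direction. Other members mentioned lie outside these rules, some with a mean under 20 reads, such as KCNH3, KCNH4, KCNJ5, KCNJ11, KCNIP2, KCNC1 and CACNB3. Gene strands and promoters came from RefSeq (GRCh38.p14), by symbol; 85 members matched. Alternatives were other scalings, filters, added reads, window choices, models and left-out libraries; 1 of them, the approximate contrasts, was chosen after seeing the data. A few genes that these rules name are not reported here.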

Additional observations from a re-analysis of the deposited data

How the results depend on the processing

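Counts are of channel genes enriched and below the centre, in that order. For both fractions they were 21 and 37, and with median-of-ratios factors 20 and 37, total reads 26 and 32, no replicate block 24 and 29, limma-trend 19 and 30, and the quasi-Poisson model 18 and 27. The enriched count became 0 with the submitters' constants, which moved the median window to -1.30, 32 with no filter, 46 in set 2 alone, 1 in set 1 alone (12 below), 34 with 2 reads added (24 below) and 33 over every window. For migrated cells (22 and 27) the counts that moved were 0 enriched and 56 below with the constants, 17 below with no filter, 16 below with no replicate block, 14 enriched under limma-trend and 12 below with 2 reads added. For non-migrated cells (11 and 14) they were 0 enriched with the constants, 18 enriched with total reads, 18 and 8 with no filter, 8 below with no replicate block, 7 and 7 under limma-trend, 9 below in the quasi-Poisson model, 21 enriched with 2 reads added, 23 below over every window, 6 enriched on the gene's own strand, and 5 and 8 with approximate contrasts. Leaving out each library in turn gave 14 to 41 enriched and 20 to 32 below for both fractions, 5 to 28 and 0 to 31 for migrated cells, and 3 to 25 and 3 to 16 for non-migrated cells; without the set 2 input of migrated cells, migrated cells had 5 and 0. The change gave 0 to 3 higher and 0 lower: without H3K9me3 of set 2, of migrated cells CACNA1S was called, and of non-migrated cells CACNA1S, CACNA1I and KCNT1, at log2 4.33 to 4.91.

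Signs turned for SCN3B (0.24 in set 2 alone, 0.07 with 2 reads added, and with 1 H3K9me3 library left out 0.60 for migrated cells of set 1, -1.27 for migrated cells of set 2 and 0.34 for non-migrated cells of set 2) and for CACNA1S (without H3K9me3 of non-migrated cells, 0.00 if set 1 and -2.86 if set 2 was left out). The cause was not tested. Of 393 values of named genes under the other settings 342 kept direction and side of the threshold, as did 219 of 248 without 1 library. Depth limits the H3K9me3 values of set 1 most, where a window without reads allows up to 28.9 RPM in migrated cells.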
